A study of Mus musculus with 10 samples.

Results

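Solute carriers are the membrane proteins that move amino acids, sugars, nucleosides, metals, ions and other small solutes across the plasma membrane and the membranes of organelles. Genes of this superfamily were compared between CT26 tumors from future responders and non-responders to a hydrogel that releases poly(I:C), a synthetic double-stranded RNA. Members were the rows whose gene name begins with Slc and a family number, without Slc2a1 and Slc16a3, with an average of at least 2 raw CPM, the count of a gene scaled to a fixed library total, over the 10 tumors. Of 379 rows with such a name 2 were left out by that rule, and 201 of the other 377 reached the level, out of 36009 rows in the table. The level was taken from all tumors together, whatever their group. All 201 members entered the test across genes. The 176 rows under the level included 10 with no count in any tumor, and 56 of the 176 were expressed enough to be tested, of which 0 passed by edgeR at an adjusted p under 0.05. At an unadjusted p under 0.05 there were 14 of these 56, with 4 called by DESeq2 and 0 by limma-voom.

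RNA was measured by polyA sequencing in tumors grown under the skin of female wild-type (WT) BALB/c mice from CT26, an established mouse colorectal carcinoma line. The responder group held 6 tumors and the non-responder group 4, all untreated when they were taken, since the sequenced tissue was the portion removed at a partial resection before the gel was placed on what remained. According to the methods, the mice were selected as complete regressions or as growth without delay, so intermediate outcomes are not represented. The mice were bought as young adults, per the methods. Library totals ranged from 23374649 to 38042544 estimated counts, and the members held between 1.14% and 1.23% of a library. Within a group the tumor numbers follow the order of the accessions. The labels give no batch and do not pair tumors. Of the markers of an epithelial carcinoma, Krt8, Krt18, Krt19 and Epcam were each under 1 CPM in every tumor, whereas Cdh1 averaged 4.15 CPM in responders and 6.0 in non-responders and Krt20 averaged 29.1 and 52.9.

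Carriers are named by family, and members of a family usually share a fold and a group of substrates. Secondary active carriers draw on the sodium, proton or chloride gradients that ATP-driven pumps maintain, exchangers trade 1 solute for another, and facilitators let a solute run down its own gradient. In tumors the amino acid, lactate and phosphate carriers of dividing cells stand beside those of infiltrating cells, and macrophages are known for carriers that empty lysosomes and phagosomes of metals, peptides and nucleosides. The 201 members fell into 46 families, of which 10 had a single member. The mitochondrial family 25 had 38 members, family 35 of nucleotide sugar carriers had 20, the zinc importer family 39 had 10, and families 7 (amino acids) and 9 (sodium-proton exchangers) had 9 each. There were 5 members that carry a solute carrier name without being carriers, such as Slc9a3r1 and Slc9a3r2, scaffold proteins that bind sodium-proton exchangers. Apart from these 5, the substrate classes used below were assigned by family number alone, so a class can hold members with another substrate.

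Promoter sequence is shown for members that the comparison turns on, so that the start sites can be set beside the values. RefSeq windows on GRCm38.p6, from 250 bases before to 50 bases after an annotated start, matched 150 of the 200 member symbols, among them 12 of the 16 members that were higher in responders and 10 of the 11 that were lower. Each window was searched on both strands for 4 motifs chosen after the values were seen: the E-box CACGTG, the interferon response core GAAANNGAA, the PU box GAGGAAGT and the amino acid response core TGATGCAA. In the windows of called members no match overlapped another. The windows below are written 5′ to 3′ on the strand of the gene, with any motif in capitals. The first belongs to the most strongly called metal carrier and held none of the 4, the next 3 belong to nucleoside and amino acid carriers that were higher in responders, and the others hold an E-box.
Slc11a1, chr1:74374953-74375252, + strand: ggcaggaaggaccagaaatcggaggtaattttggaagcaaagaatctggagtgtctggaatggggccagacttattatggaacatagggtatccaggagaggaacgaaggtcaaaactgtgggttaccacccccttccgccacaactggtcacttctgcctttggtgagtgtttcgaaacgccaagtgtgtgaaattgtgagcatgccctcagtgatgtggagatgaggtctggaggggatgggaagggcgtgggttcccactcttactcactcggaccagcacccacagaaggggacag
Slc28a2b, chr2:122484691-122484990, + strand: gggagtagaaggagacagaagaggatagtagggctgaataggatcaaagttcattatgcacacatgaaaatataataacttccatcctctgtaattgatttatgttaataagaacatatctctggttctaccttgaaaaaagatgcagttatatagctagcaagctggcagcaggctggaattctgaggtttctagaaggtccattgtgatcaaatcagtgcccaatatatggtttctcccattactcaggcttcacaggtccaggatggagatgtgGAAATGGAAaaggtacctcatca
Slc7a8, chr14:54781837-54782136, - strand: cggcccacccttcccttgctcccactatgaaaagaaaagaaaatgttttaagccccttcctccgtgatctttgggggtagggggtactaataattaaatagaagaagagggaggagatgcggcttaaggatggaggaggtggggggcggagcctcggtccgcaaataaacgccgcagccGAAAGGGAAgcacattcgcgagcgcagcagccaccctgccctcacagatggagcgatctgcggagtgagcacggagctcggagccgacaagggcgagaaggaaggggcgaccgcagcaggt
Slc7a7, chr14:54417895-54418194, - strand: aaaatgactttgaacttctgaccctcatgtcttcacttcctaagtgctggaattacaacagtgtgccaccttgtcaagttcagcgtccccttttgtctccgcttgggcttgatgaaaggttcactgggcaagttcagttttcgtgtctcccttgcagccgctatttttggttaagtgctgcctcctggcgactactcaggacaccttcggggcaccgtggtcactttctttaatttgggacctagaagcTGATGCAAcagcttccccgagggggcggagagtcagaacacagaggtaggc
Slc20a1, chr2:129198523-129198822, + strand: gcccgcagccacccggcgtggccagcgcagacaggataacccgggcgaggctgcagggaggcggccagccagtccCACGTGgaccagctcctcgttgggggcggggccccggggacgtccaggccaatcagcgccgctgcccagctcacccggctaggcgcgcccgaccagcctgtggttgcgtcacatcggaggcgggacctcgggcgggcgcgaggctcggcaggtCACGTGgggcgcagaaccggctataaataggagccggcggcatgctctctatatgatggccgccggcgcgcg
Slc37a3, chr6:39377658-39377957, - strand: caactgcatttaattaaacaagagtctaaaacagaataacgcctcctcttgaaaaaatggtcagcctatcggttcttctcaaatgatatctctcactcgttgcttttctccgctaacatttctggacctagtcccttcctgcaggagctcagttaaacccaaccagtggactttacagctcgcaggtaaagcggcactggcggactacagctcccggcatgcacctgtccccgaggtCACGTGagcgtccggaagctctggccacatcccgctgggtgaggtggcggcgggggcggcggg
Slc31a2, chr4:62286179-62286478, + strand: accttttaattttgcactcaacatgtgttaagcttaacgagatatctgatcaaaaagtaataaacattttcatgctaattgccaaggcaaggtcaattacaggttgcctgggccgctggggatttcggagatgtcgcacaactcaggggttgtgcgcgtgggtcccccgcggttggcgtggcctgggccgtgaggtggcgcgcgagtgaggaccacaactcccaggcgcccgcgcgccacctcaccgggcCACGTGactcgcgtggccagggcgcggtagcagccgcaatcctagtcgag

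In the window of Slc20a1 the E-box occurs at 175 and at 22 bases before the start. That of Slc37a3 lies 13 bases before the start, and in Slc31a2 the match begins at the start itself. The amino acid core begins 1 base before the start in the Slc7a7 window shown. Another window of Slc7a7 holds the same match 243 bases before its own start, and the remaining windows of that gene held no motif. Slc20a1 and Slc37a3 also had a further window without a motif. For each of these genes a window with a motif was printed. The interferon core lies 71 bases before the start of Slc7a8 and inside the first transcribed bases of Slc28a2b. Over the 150 matched members, 18.7% had an E-box, compared with 8.09% of 27025 genes with a window. Those genes were taken whatever their level in these tumors, and genes of like level to the members were not counted. Whether the higher share belongs to carriers or to expressed genes was not tested. The interferon core was found in 8.67% of members and 9.76% of all genes, the PU box in 4.0% and 3.69%, and the amino acid core in 2.67% and 1.03%. Among the members with a higher call 1 of 12 had an E-box, among those with a lower call 3 of 10, and among those without a call 18.8% did. These matches are a description of letters in a fixed window.

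The test asked which carriers differed in level between the future responders and non-responders. Of the 201 members, 27 passed (13.4%), 16 higher in responders (7.96%) and 11 lower (5.47%), by edgeR's quasi-likelihood test with adjusted p under 0.05. Over all 16041 genes tested, 8.06% passed, 4.71% higher and 3.35% lower. Over the 12675 genes that reach the same average of 2 CPM, 9.47% passed, 5.47% higher and 4.0% lower, which is the nearer background for members chosen by level. The members' shares were above both backgrounds in each direction, by a smaller margin beside the genes of like level. The same shares are the background for the calls counted by class and by list below. The 16 higher members had a median log2 fold change of 0.63, from 0.31 to 3.32, and 6 of them differed at least 2-fold. Among those 6 were Slc17a6, at 3.32, and Slc2a4, which reached the member level through their responders. Their calls therefore do not stand apart from the rule that chose the members. Slc28a2 and Slc28a2b, which share sequence, were also among the 6. The 11 lower members had a median of -0.28, from -0.59 to -0.17, and 0 differed 2-fold.

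Most carriers had nearly the same level in both groups. The median log2 fold change was 0.01 over members, -0.01 over all genes and -0.02 over genes of at least 2 CPM, and 129 members lay within 0.2 of no change. The median size of the change, without its sign, was 0.14 over members, 0.13 over all genes and 0.11 over those of at least 2 CPM. A higher estimate in responders was found for 110 members (54.7%), against 45.6% of the genes of at least 2 CPM. The uncalled 174 had log2 fold changes from -0.65 (Slc9a2) to 0.79 (Slc2a3), both named after their values were seen. The groups did not overlap for 18 members with higher values in responders (8.96%) and for 11 with lower values (5.47%), where 5.84% and 4.55% of all genes tested did so. In 22 of these 29 members the difference also passed the test. The share without overlap was not counted over the genes of at least 2 CPM, the nearer background. The spread of log2 CPM within a group had a median SD of 0.13 over members, from 0.04 to 1.19, the last of which belonged to Slc17a6.

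**Figure D1:**
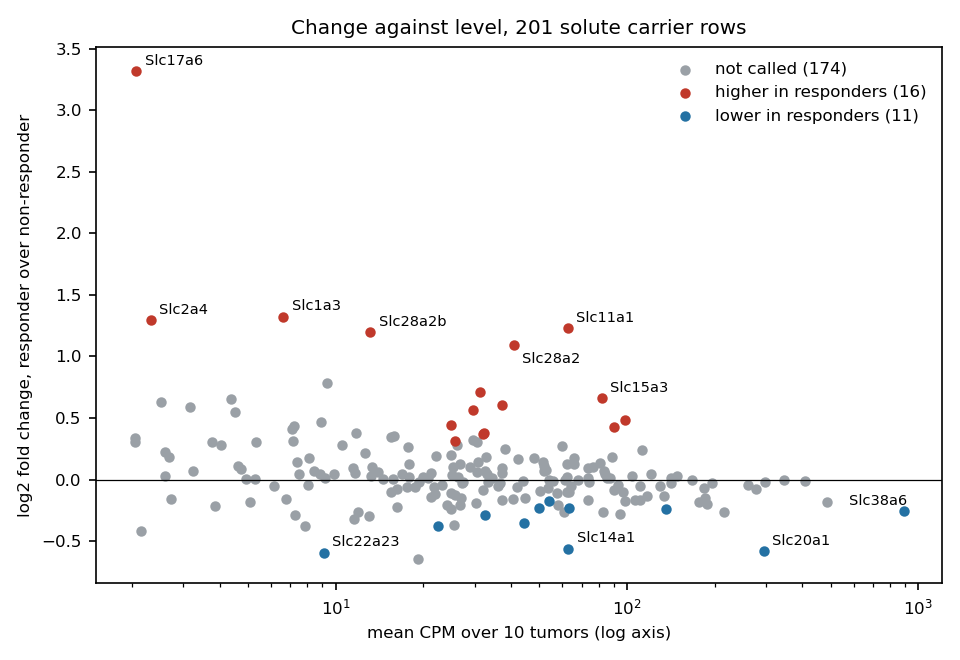
Log2 fold change of responders over non-responders (vertical axis) against the mean CPM over the 10 tumors (horizontal, log axis) for each of the 201 members. Red points are the 16 called higher, blue the 11 called lower, grey the 174 not called. The higher calls reach 3.32, and none of the lower calls passes -0.59.

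These counts depended on which tumors entered the fit. When 1 tumor at a time was left out, edgeR called 0 members without responder 3, without non-responder 1 or without non-responder 4, while 70, 58 and 71 members kept an unadjusted p under 0.05. In those fits 17, 16 and 0 of all genes were called. Between 8 and 13 members were called without responder 1 (10), responder 2 (8), responder 5 (13), responder 6 (13) or non-responder 3 (11), and 38 without responder 4 or non-responder 2. All 27 members kept their direction and an unadjusted p under 0.05 in each of the 10 fits. No member passed the adjusted threshold in more than 7 of them.

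**Figure D2:**
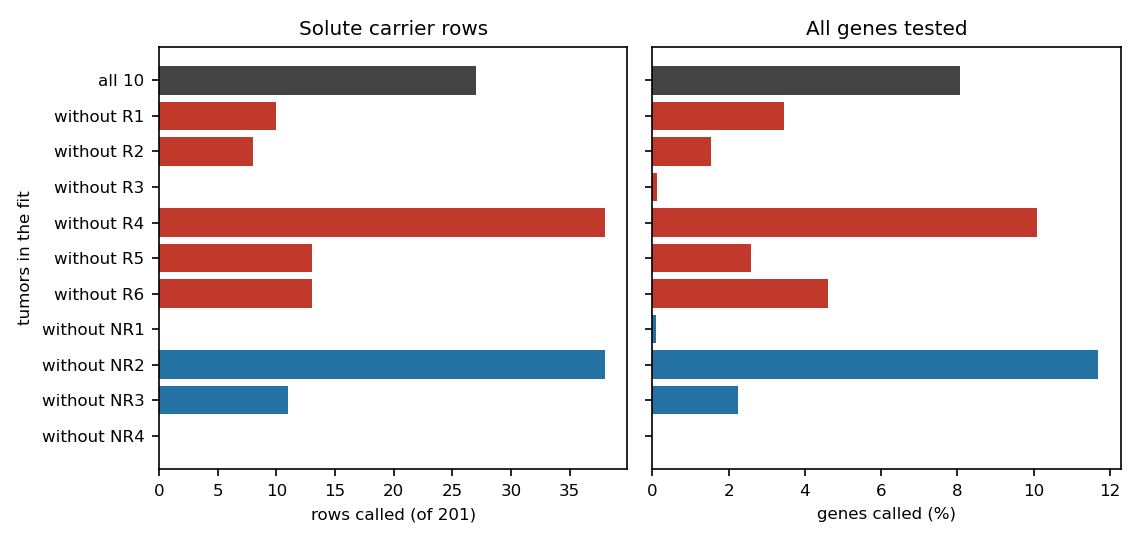
Calls (adjusted p under 0.05) in the fit of all 10 tumors and after leaving out each tumor in turn, as the number of members of 201 (left) and the percentage of all genes tested (right). Both fell together, to 0 members without responder 3 (R3), non-responder 1 (NR1) or non-responder 4 (NR4), and rose to 38 members without R4 or NR2.

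The same 2 tumors often stood at the ends of the range. Responder 5 was the highest tumor for 14 of the 16 higher members, and non-responder 1 was the lowest for 11 of them. For the 11 lower members, non-responder 1 was highest in 8 and responder 5 lowest in 6. Over all 201 members responder 5 was highest in 75 and lowest in 26, and non-responder 1 was lowest in 52 and highest in 45. The summed level of the members differed little between tumors, from 11443 to 12282 CPM.

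**Figure D3:**
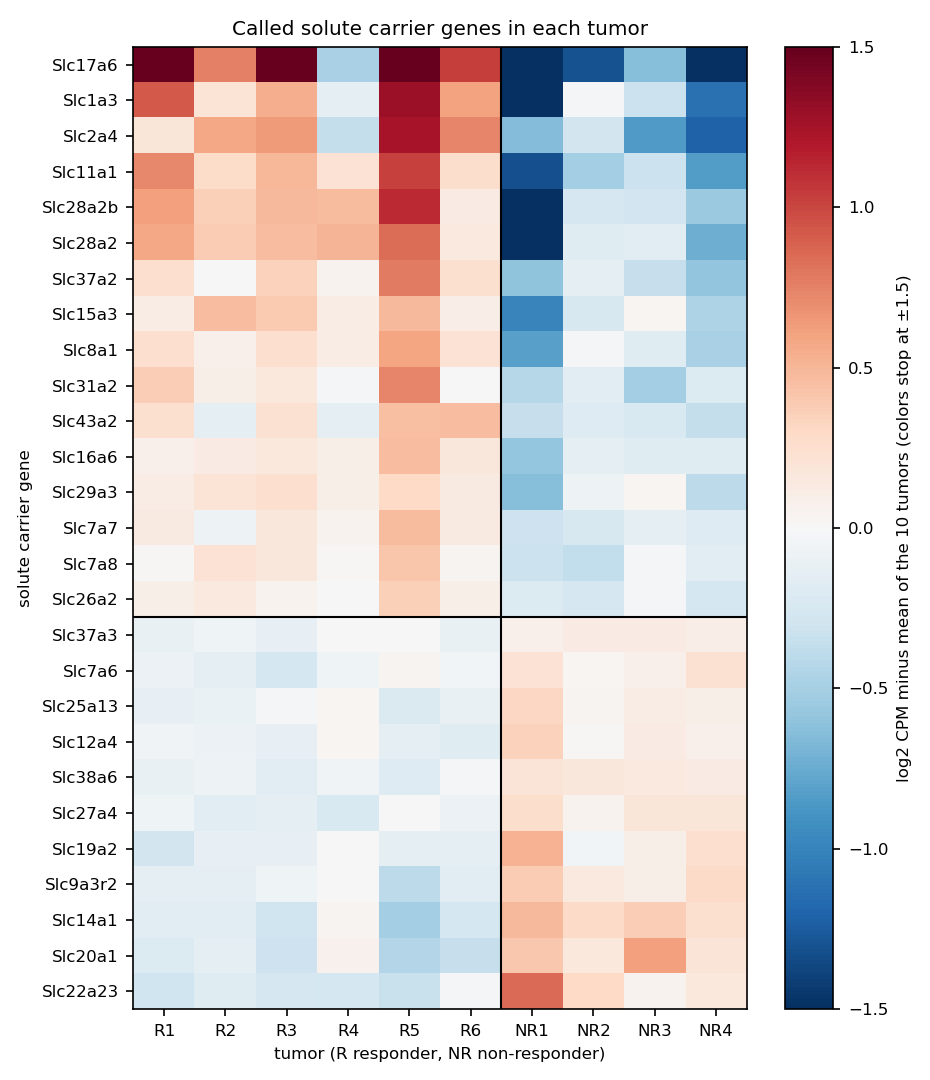
Level of the 27 called members in each tumor, as log2 CPM minus the mean of that gene over the 10 tumors (red above, blue below, colors stop at 1.5). Columns are responders 1 to 6 and non-responders 1 to 4, and rows are ordered by fold change. The darkest columns among the higher members are responder 5 and non-responder 1.

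Metal carriers gave the called member with the smallest p in the higher direction. Slc11a1 (ENSMUSG00000026177, chr1:74375195-74386062) encodes NRAMP1, which exports iron and manganese from the phagosomes of macrophages. It stood at 93.4, 68.1, 79.5, 65.4, 115 and 67.8 CPM in responders 1 to 6 and at 22.6, 39.8, 45.2 and 31.6 CPM in non-responders 1 to 4. The lowest responder was above the highest non-responder, and the difference was 2.35-fold (log2 fold change 1.23, SE 0.21, adjusted p = 0.0222). Slc31a2, a copper transporter of intracellular membranes, averaged 34.1 ± 7.33 CPM in responders and 23 ± 2.63 in non-responders, where ± is the SD over 6 and 4 tumors here and in what follows. Its log2 fold change was 0.57 (SE 0.15, adjusted p = 0.0424 by edgeR), without overlap. The other 21 members for iron, zinc, copper and heme did not pass. Of all 23, 9 had a higher and 14 a lower estimate, with a median of -0.06, and of the 10 zinc importers of family 39 only 2 had a higher estimate. The iron exporter Slc40a1 differed little, with 104 ± 21.5 and 103 ± 17.7 CPM (log2 fold change 0.03).

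Iron and zinc genes outside the superfamily were read beside them. Of 11 iron handling genes tested, 1 was higher in responders and 1 lower. Ftl1, the ferritin light chain, averaged 1569 and 1302 CPM (log2 fold change 0.27, SE 0.05, adjusted p = 0.0229 by edgeR). Tfrc, the transferrin receptor, averaged 55.8 and 67.6 CPM (-0.28, SE 0.07, adjusted p = 0.0413 by edgeR). Of 7 zinc and copper handling genes tested, 4 had a higher estimate and 0 passed by edgeR, DESeq2 or limma-voom, with 1 at an unadjusted p under 0.05.

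Nucleoside carriers were higher in 3 of 5 members. Slc28a2 (chr2:122426477-122461137) is a sodium-coupled carrier of purine nucleosides, and Slc28a2b (chr2:122484941-122528040) is its neighbor and close relative. Slc28a2 ranged from 40.7 to 65.6 CPM in responders, with a median of 51.6, and was 10.2, 32.4, 32.6 and 22.2 CPM in non-responders 1 to 4. For Slc28a2b the responders ranged from 12.5 to 25, with a median of 16.1, and the non-responders had 2.75, 9.67, 9.41 and 7.84 CPM. Every responder was above every non-responder for both genes, and non-responder 1 was lowest for both. By edgeR, Slc28a2 differed by 1.10 on the log2 scale (SE 0.26, adjusted p = 0.0371) and Slc28a2b by 1.20 (SE 0.30, adjusted p = 0.0394). The pair cannot be counted as independent, since 46.3% of the 31-base words of Slc28a2 also occur in Slc28a2b. Slc29a3, an equilibrative nucleoside transporter of lysosomes, averaged 101 ± 5.87 and 75.1 ± 15.4 CPM (SD, n = 6 and 4). It differed by 0.43 on the log2 scale (SE 0.11, adjusted p = 0.0432 by edgeR). The plasma membrane transporters of the same family, Slc29a1 and Slc29a2, had log2 fold changes of -0.05 and -0.22 and did not pass. Summed over the class, the level was 316.9, 303.7, 307.7, 308.4, 348.4 and 292.1 CPM in responders and 227.6, 274.7, 271.8 and 253.2 in non-responders, without overlap.

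Amino acid carriers moved in both directions, with 4 of 29 members higher and 2 lower. Slc7a7 and Slc7a8 are light chains that pair with the heavy chain Slc3a2, the first exchanging cationic for neutral amino acids and the second neutral ones. Slc7a7 averaged 35.7 ± 4.81 CPM in responders and 27.5 ± 1.39 in non-responders (log2 fold change 0.38, SE 0.09, adjusted p = 0.0383 by edgeR). Slc7a8 averaged 35.3 ± 3.94 and 27.4 ± 3.03 CPM (0.37, SE 0.09, adjusted p = 0.0413 by edgeR). Slc43a2, a facilitator of large neutral amino acids, ranged from 87.1 to 133 CPM in responders and was 76.1, 84.4, 82.7 and 75.2 CPM in non-responders (0.49, SE 0.12, adjusted p = 0.0418 by edgeR). These 3 genes did not overlap between groups. Slc1a3, a sodium-coupled carrier of glutamate and aspartate, had the largest log2 fold change of the class at 1.32 (SE 0.36, adjusted p = 0.0478 by edgeR). It was the last of the 16 by p and is described here after its values were seen. Its responders ranged from 5.08 to 13.6 CPM and its non-responders had 1.41, 5.52, 4.47 and 2.56 CPM, so that responder 4 was below non-responder 2. Slc3a2 itself did not differ beyond the spread, at 168 ± 9.58 and 168 ± 12.3 CPM.

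The 2 lower amino acid carriers were Slc38a6 and Slc7a6. Slc38a6 (chr12:73286779-73354049), a member of a family of sodium-coupled neutral amino acid carriers, lay between 777 and 870.1 CPM in responders and at 1014, 994, 979.5 and 965 CPM in non-responders. The groups did not overlap, with a log2 fold change of -0.26 and a within-group SD of 0.05 on that scale (SE of the change 0.05, adjusted p = 0.0229 by edgeR). Its level is uncertain, because 40.7% of its 31-base words also occur in transcripts of 4387 other genes, and 78.0% of those of its transcript of 3927 bases do. Slc7a6, a light chain like Slc7a7, averaged 59.1 ± 4.09 and 69.2 ± 4.8 CPM (-0.23, SE 0.06, adjusted p = 0.0458 by edgeR), with overlap.

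Slc7a6 was also the only called gene of 10 amino acid carriers known to rise in dividing cells. Of these 10, 8 had a lower estimate in responders, with a median of -0.17. Slc7a5, the main importer of leucine, averaged 178 ± 23.1 and 204 ± 51.2 CPM, and Slc38a2, a glutamine and alanine importer, averaged 459.5 ± 38 and 522 ± 39.8 CPM. The glutamine exchanger Slc1a5 had a log2 fold change of -0.13, the arginine importer Slc7a1 one of -0.15, and the cystine importer Slc7a11 one of -0.24. Slc1a4, a carrier of serine and alanine, varied more between tumors (-0.37, SE 0.23, adjusted p = 0.306 by edgeR). The 2 higher estimates were those of Slc38a1, a glutamine importer (0.25, SE 0.08, adjusted p = 0.0708 by edgeR), and Slc43a1, a facilitator of large neutral amino acids (0.31, SE 0.19, adjusted p = 0.298 by edgeR). In non-responders, the tumors 1 and 4 were above 2 and 3 for Slc7a5 (254, 158, 162 and 243 CPM in order) and for Slc1a5 (153, 122, 125 and 166 CPM). Among 12 genes of the amino acid response outside the superfamily, all 12 had a lower estimate in responders, with a median of -0.23. By edgeR 0 of the 12 passed, 5 had an unadjusted p under 0.05, and DESeq2 and limma-voom called 0. Of 10 genes of glutathione synthesis and use, 1 was lower (Gss, -0.34, adjusted p = 0.0243 by edgeR). Of 12 tested genes of lysosomal amino acid sensing, 0 passed by edgeR or limma-voom and 1 by DESeq2, with 2 at an unadjusted p under 0.05.

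Peptide and urea carriers were split. Slc15a3 (chr19:10839727-10859362) moves histidine and short peptides out of lysosomes. Its responders had 85.2, 108, 103, 85.2, 110.0 and 84.3 CPM and its non-responders 39.6, 66.3, 80.4 and 56.8 CPM. The closest pair was responder 6 and non-responder 3, and the log2 fold change was 0.66 (SE 0.17, adjusted p = 0.0401 by edgeR). Exons of Tmem132a on the other strand overlap 28.1% of its exon bases, and the strand setting of the counting is not given, so reads of the 2 genes may be mixed. Slc14a1, which lets urea cross the plasma membrane, had the smallest p of all members. Its level was 54.8, 55.3, 50, 63.4, 43.1 and 51.1 CPM in responders and 85.9, 74.8, 79.3 and 72.4 CPM in non-responders. All 4 non-responders were above every responder (log2 fold change -0.56, SE 0.09, adjusted p = 0.0207 by edgeR). Slc22a23, a carrier of the organic ion family with no agreed substrate, averaged 7.57 ± 0.632 and 11.4 ± 3.03 CPM. It differed by -0.59 (SE 0.14, adjusted p = 0.0360 by edgeR), with non-responder 1 at 15.9 CPM and the other 3 between 9.19 and 10.9. Without non-responder 1 its log2 fold change was -0.39.

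The phosphate carrier gave the largest difference among the 10 most abundant members. Slc20a1 (chr2:129198764-129211616) takes up phosphate with sodium, and it ranked 8th of 201 by CPM per kb of exon. Responders 1 to 6 had 248, 261, 231, 299, 211 and 225 CPM and non-responders 1 to 4 had 380.5, 320.4, 441 and 329 CPM. Responder 4 came nearest to the non-responders without reaching them, and the fitted ratio was 0.669 (log2 fold change -0.58, SE 0.11, adjusted p = 0.0243 by edgeR). In the same class, Slc8a1, the sodium-calcium exchanger, went the other way. It ranged from 38.1 to 54.6 CPM in responders and was 20.6, 35.6, 31.8 and 25.8 CPM in non-responders (0.61, SE 0.15, adjusted p = 0.0371 by edgeR). The sum of the 7 members for calcium, phosphate and magnesium was 477.5 ± 28.4 and 596.7 ± 63.9 CPM without overlap, and Slc20a1 made up most of it.

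Sugar carriers had 11 of 15 estimates higher in responders, with 2 called higher and 1 lower. Slc37a2, a sugar phosphate exchanger of the endoplasmic reticulum that macrophages express, ranged from 30.1 to 51.7 CPM in responders and was 19.8, 27.3, 23.6 and 20.0 CPM in non-responders. It differed without overlap by 0.71 (SE 0.15, adjusted p = 0.0303 by edgeR). Its relative Slc37a3 was lower by a small and even step, with 51.3 ± 1.97 and 57.8 ± 0.934 CPM (-0.17, SE 0.04, adjusted p = 0.0321 by edgeR). Slc2a4, the insulin-responsive glucose transporter GLUT4 of muscle and fat, was near the member threshold, with raw averages of 3.04 and 1.25 CPM. Its responders ranged from 1.58 to 4.78 CPM and its non-responders had 1.29, 1.68, 1.13 and 0.875 CPM (1.30, SE 0.30, adjusted p = 0.0330 by edgeR). Responder 4 was below non-responder 2.

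Monocarboxylate carriers gave 1 call in 8 members. Slc16a6 averaged 27.9 ± 2.95 CPM in responders and 20.5 ± 2.75 in non-responders (0.45, SE 0.10, adjusted p = 0.0330 by edgeR), and 21.5% of its exon bases are overlapped by exons of Amz2 on the other strand. The lactate carrier Slc16a1, the most abundant of the class, had 199 ± 21.3 and 239.5 ± 31.4 CPM and did not pass (-0.27, adjusted p = 0.0912 by edgeR). The vesicular and organic anion class had 5 higher estimates in 5 members, of which only Slc17a6 passed.

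Slc17a6, the vesicular glutamate transporter VGLUT2, had the largest fold change and the lowest level of the called members. Responders 1 to 6 had 6.19, 1.72, 3.51, 0.726, 5.18 and 2.09 CPM, and non-responders 1 to 4 had 0.0807, 0.411, 0.650 and 0.181 CPM. Non-responder 1 was under the level that 3 counts give in its library, 0.121 CPM. The groups came close at responder 4 and non-responder 3 without overlapping. The fitted log2 fold change of 3.32 (SE 0.68, adjusted p = 0.0282 by edgeR) rests on these few counts. Slc17a6 reached the member threshold through its responders, with raw averages of 3.23 and 0.330 CPM, as did Slc2a4, so their presence among the members does not stand apart from their difference. In all, 6 members averaged under 2 raw CPM in one of the groups, and the other 4 did not pass. Just inside the threshold were Slc9a7 at 2.05 and Slc43a1 at 2.05 raw CPM, and just outside it Slc24a5 at 1.96 and Slc16a11 at 1.86.

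Acid-base and chloride carriers had 1 higher and 1 lower call in 23 members. Slc26a2, a sulfate and chloride exchanger, ranged from 25.8 to 32.7 CPM in responders and was 22.1, 21.5, 25.1 and 21.4 CPM in non-responders (0.31, SE 0.07, adjusted p = 0.0360 by edgeR). Slc12a4, a potassium-chloride cotransporter, averaged 127 ± 6.59 and 150.0 ± 15.7 CPM (-0.24, SE 0.06, adjusted p = 0.0484 by edgeR), with overlap. Without non-responder 1 the log2 fold change of Slc12a4 was -0.155. Among 12 pumps and carrier partners outside the superfamily, 2 were higher and 0 lower. These were Atp1b3, a sodium pump subunit (0.42, SE 0.08, adjusted p = 0.0264 by edgeR), and Stk39, a kinase that acts on chloride cotransporters (0.84, SE 0.21, adjusted p = 0.0402 by edgeR). The Slco carriers of organic anions, a related superfamily, had 1 higher (Slco3a1, 0.88) and 1 lower (Slco1a5, -0.81) of 8 tested.

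Carriers of mitochondria and of the Golgi had few or no calls, where 9.47% of the genes of at least 2 CPM passed in either direction. In the mitochondrial family 1 of 38 members passed, Slc25a13, an exchanger of aspartate for glutamate, with 46.6 ± 2.75 and 54.6 ± 4.6 CPM (-0.23, SE 0.06, adjusted p = 0.0457 by edgeR). The family's median was -0.01 and its range -0.27 to 0.28. Its paralog Slc25a12 had a higher estimate and no overlap, at 50.4 ± 1.80 and 44.5 ± 3.19 CPM, short of the threshold (0.18, adjusted p = 0.0530 by edgeR). Of the 20 nucleotide sugar carriers 0 passed by edgeR or limma-voom and 1 by DESeq2, with 2 at an unadjusted p under 0.05. Slc35g1 had the smallest p among them (-0.30, adjusted p = 0.0611 by edgeR). The remaining lower calls were Slc27a4, which takes up and activates long-chain fatty acids (29.9 ± 1.72 and 36.4 ± 2.14 CPM, -0.28, adjusted p = 0.0268 by edgeR), Slc19a2, a thiamine transporter (39.9 ± 2.50 and 50.9 ± 8.77 CPM, -0.35, adjusted p = 0.0453 by edgeR), and the scaffold Slc9a3r2 (20.1 ± 1.80 and 26.2 ± 2.40 CPM, -0.38, adjusted p = 0.0304 by edgeR). Without non-responder 1 the log2 fold change of Slc19a2 was -0.23.

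**Figure D4:**
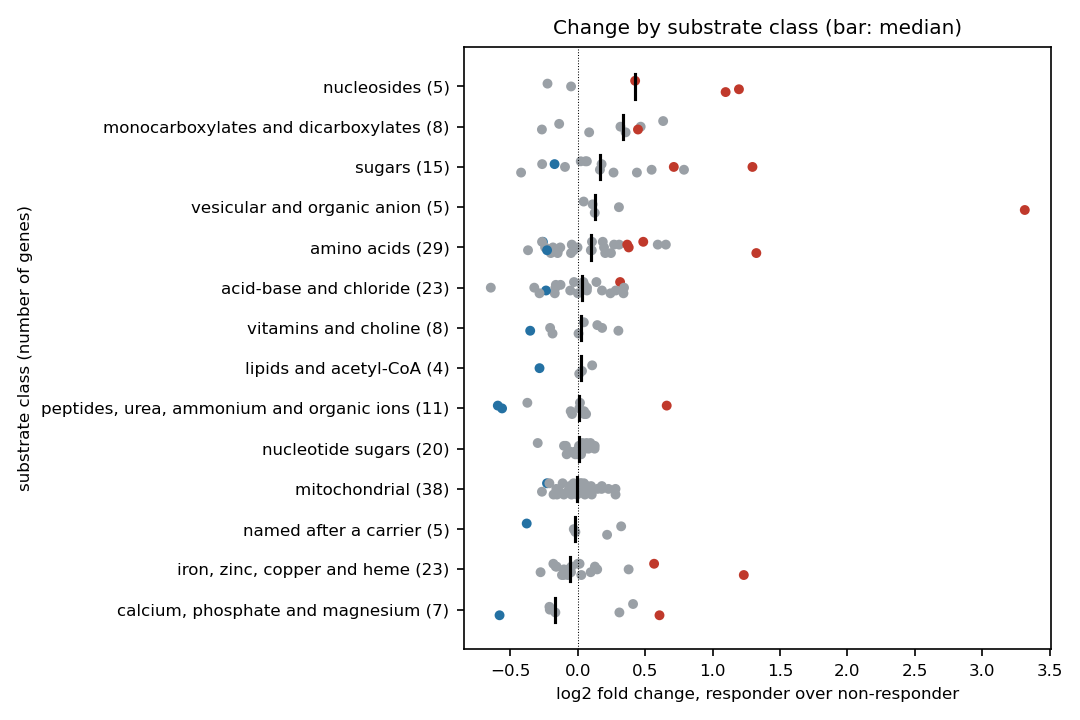
Log2 fold change of responders over non-responders for the members of each substrate class (points, red called higher, blue called lower, grey not called), with the class median as a black bar. Nucleosides have the highest median, 0.43, and calcium, phosphate and magnesium the lowest, -0.17. The point at 3.32 is Slc17a6.

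The members were also ranked by abundance. By CPM per kb of exon, which allows levels of different genes to be compared, the members ranged from 0.257 to 210 with a median of 6.51. The first 10 were the ADP-ATP exchangers Slc25a5 (210) and Slc25a4 (173), the zinc carriers Slc39a1 (117) and Slc39a7 (71.1), the amino acid carriers Slc38a6 (114), Slc38a2 (54.8) and Slc7a5 (50.8), the phosphate carriers Slc25a3 (53.6) and Slc20a1 (52.8), and Slc16a1 (48.6). Of these 10, Slc38a6 and Slc20a1 passed the test, both lower in responders. Shared sequence limits some of these levels, at 49.4% of the 31-base words of Slc25a5 and 76.8% of those of Slc39a7. Over all members the median share was 1.20%, with 150 under 5% and 18 over 20%. Exons of 48 members overlap exons of a gene on the other strand.

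Carriers known in macrophages and other myeloid cells formed the list with the most calls. Of 14 such carriers, 13 had a higher estimate in responders and 7 passed, Slc11a1, Slc15a3, Slc7a7, Slc7a8, Slc37a2, Slc29a3 and Slc8a1. The median was 0.37, where that of all genes was -0.01. Over the genes of at least 2 CPM, 5.47% were called higher. Summed, the 14 stood at 736.0, 685.2, 697.0, 643.8, 824.1 and 701.5 CPM in responders and at 470.0, 580.5, 626.1 and 545.6 CPM in non-responders, without overlap. Of the 7 that did not pass, Slc7a2, an arginine importer, had 5.14 ± 1.79 and 3.27 ± 0.519 CPM (0.65, adjusted p = 0.128 by edgeR), and Slc9a9, an endosomal sodium-proton exchanger, had a log2 fold change of 0.34 (adjusted p = 0.0797 by edgeR). Slc46a3, Slc2a6, Slc40a1 and Slc15a4 had 0.30, 0.18, 0.03 and 0.02, and the heme carrier Slc48a1 had -0.05. The members of this list are not specific to myeloid cells, and the list was chosen with earlier results of these tumors known.

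Macrophage markers moved with these carriers. Of 8, 7 had a higher estimate and 5 passed (Adgre1, Cd68, C1qa, C1qb and C1qc), and their sum ranged from 2919 to 4343 CPM in responders and from 2052 to 2761 in non-responders. Csf1r had a log2 fold change of 0.24, Mertk of 0.03 and Mrc1 of -0.13, none of which passed. Responder 5 was highest and non-responder 1 lowest for the marker sum, as for most of the higher carriers. These ends were not particular to macrophages. The same tumors held them for the summed markers of monocytes, T cells, NK and cytotoxic lymphocytes, B cells, mast cells, endothelial cells and skeletal muscle. They did not for neutrophils, fibroblasts, adipocytes, keratinocytes, erythroid cells, neurons and Schwann cells, or epithelial carcinoma. In bulk tumor tissue, fewer cells of a type and less RNA per cell cannot be told apart. The part of macrophage content in the carrier differences was not tested.

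**Figure D5:**
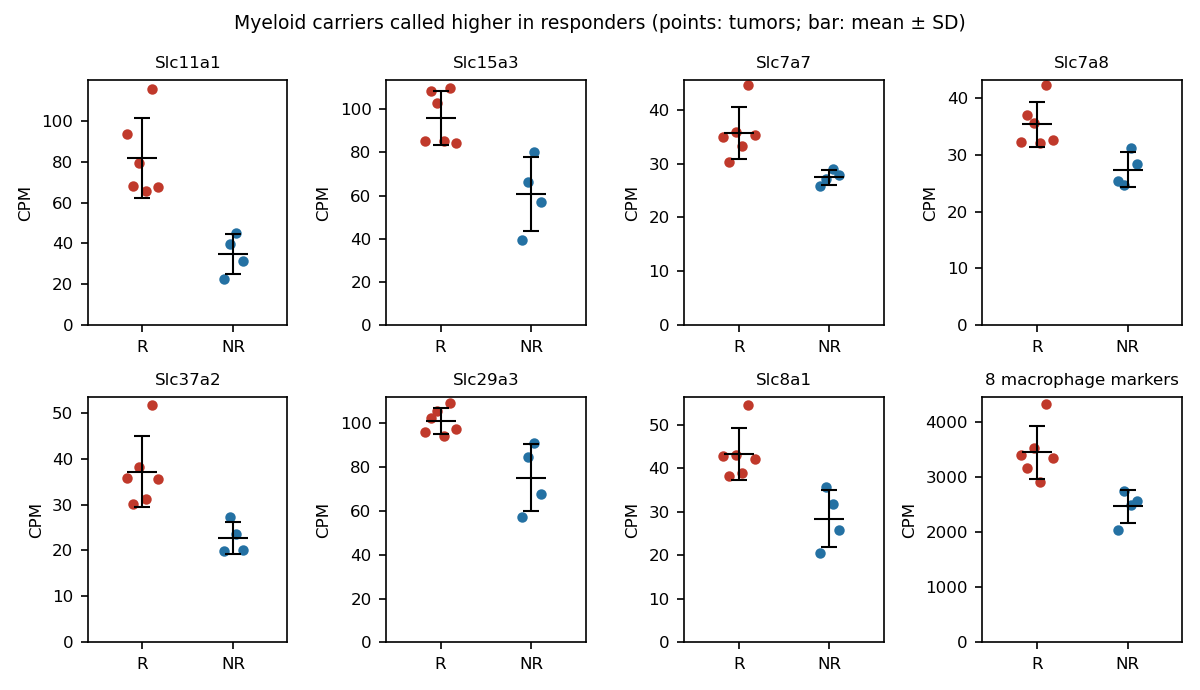
CPM in each tumor (points) of the 7 myeloid carriers called higher in responders and of the sum of 8 macrophage markers, with the mean ± SD as black bars (R, 6 responders, NR, 4 non-responders). In each panel the lowest responder is above the highest non-responder. The axes start at 0.

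Muscle and fat markers were read in the same way. All 8 skeletal muscle markers had a higher estimate and 4 passed (Acta1, Ckm, Myh1 and Myl1), with sums from 549.9 to 1603 CPM in responders and from 409.6 to 549.6 in non-responders. All 5 tested adipocyte markers had a higher estimate and an unadjusted p under 0.05, with 0 called by edgeR or limma-voom and 5 by DESeq2. Their sums ranged from 11.3 to 60.4 CPM in responders and from 3.73 to 22.2 in non-responders. Of 10 carriers known in muscle or fat, 8 were tested and 5 are members. Of the 8, 7 had a higher estimate and only Slc2a4 passed by edgeR, with 5 at an unadjusted p under 0.05. DESeq2 called 3 and limma-voom 1. The summed level of the 10 overlapped between groups (608.4 ± 26.96 and 599.8 ± 30.8 CPM). Most of that sum was Slc25a4 (407 and 409.5 CPM) and Slc27a1 (142 and 141 CPM). The other 4 members were Slc38a4 (0.59, adjusted p = 0.0889 by edgeR), Slc25a12 (0.18), Slc27a1 (0.01) and Slc25a4 (-0.01). The tested genes under the member level were Slc7a10 (1.85), Slc36a2 (1.56) and Slc16a12 (0.275), each under 1 CPM in every tumor. Whether muscle or fat in the resected piece bears on Slc2a4 was not tested.

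Other cell types were read from the same kind of list. Of 8 markers of NK and cytotoxic lymphocytes 3 passed, of 6 mast cell markers 2, and of 4 tested monocyte markers 1, all higher in responders. The summed neuron and Schwann cell markers were lower, with 7.59 to 12 CPM in responders and 17.1 to 25.2 in non-responders, and Nefl, Nefm and Snap25 passed, whereas Slc17a6, itself known from neurons, was higher. By edgeR, 0 of the tested markers of T cells, B cells, neutrophils, fibroblasts, endothelial cells, keratinocytes, erythroid cells and epithelial carcinoma passed, and limma-voom called 0 as well. All 6 T cell markers nevertheless had a higher estimate and an unadjusted p under 0.05, and DESeq2 called 4 of them. For B cells 1 of 3 had such a p and 1 was called by DESeq2, for neutrophils 1 of 5 and for the carcinoma list 2 of 3 had such a p with 0 DESeq2 calls, and for the other 4 lists both counts were 0.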

How the data were processed

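RNA from 10 resected CT26 tumors (6 responders, 4 non-responders) was compared. The authors estimated transcript abundance with Kallisto against mm10 (GRCm38) and summed it to genes with tximport, and deposited these expected counts, that is, estimated counts that are not whole in 45.1% of cells. The annotation release, the tximport scaling and the strand setting are not given in the sources used here. Of 36009 rows, 9633 had no gene name and took one from the GRCm38 annotation by identifier. Since pseudoalignment splits reads between transcripts that share sequence, the share of 31-base words in common with other genes was computed for each member.

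After rounding, edgeR 4.0.16 (R 4.3.3) was run with filterByExpr defaults (16041 genes, at most 0.0716% of a library removed), TMM (factors 0.987 to 1.01) and the quasi-likelihood test, two-sided, with Benjamini-Hochberg adjustment over all genes. A gene was called at an adjusted p under 0.05. The SE is the absolute log2 fold change over the square root of F. CPM is on TMM-scaled totals unless called raw, which is the count over the library total. P-values measure the spread between these tumors. The procedure was tested on simulated data. Alternatives were DESeq2 1.42.0, limma-voom 3.58.1, other scalings, filters and thresholds, and leaving out each tumor.

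Named members were up to 15 per direction by p among those called, the 10 highest per kb, the smallest p of each substrate class, the growth-linked, myeloid and muscle or fat carriers, and the genes beside the threshold. Others are said to be named after their values were seen. The members, lists and tests were chosen with earlier results of these data known. The lists cover growth-linked amino acid carriers, myeloid carriers, muscle or fat carriers, pumps and partners, iron handling, zinc and copper handling, the amino acid response, glutathione, lysosomal sensing and Slco carriers, and 15 cell types.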

Additional observations from a re-analysis of the deposited data

Results flagged for a closer look

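Within each group, the summed level of each substrate class and the level of each called member were examined for a tumor far from the others, 82 groups of values in all. The distance is the gap from the extreme tumor to its nearest neighbor over the range of the group, and 8 groups exceeded Dixon's critical value where chance gives about 4.1.

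Responder 5 was the tumor in 5 of the 8. It was high for Slc37a2 (51.7 CPM, next 38.2, gap ratio 0.6252), Slc16a6 (33.8, next 27.5, 0.7977) and Slc8a1 (54.6, next 43, 0.7051). It was also high for the summed sugar carriers (391.6, next 352.6, 0.764) and nucleotide sugar carriers (922.1, next 871, 0.8094). Non-responder 1 was low for Slc16a6 (16.4 CPM, next 21.6, 0.8952) and high for the summed acid-base and chloride carriers (1058, next 1003, 0.8312). Responder 1 was high for the summed monocarboxylate and dicarboxylate carriers (326.7, next 286.8, 0.838). Without responder 5 or non-responder 1, the log2 fold changes of Slc37a2, Slc16a6 and Slc8a1 stayed positive with an unadjusted p under 0.05.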

How the results depend on the processing

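Of the 27 calls, 26 were shared after scaling by RLE size factors, 27 with library totals only, 27 with a CPM filter, 27 with robust dispersion, 23 with no filter on low counts, 20 with limma-voom and 27 with DESeq2. DESeq2 called 49 members (31 higher, 18 lower). It called 9.99% of 25768 genes, a base without the filter on low counts. That share is therefore not on the same base as those of the main fit over 16041 genes. At an adjusted p under 0.10 there were 57 (33 and 24). Lower calls numbered 7 without the filter and 7 with limma-voom. Leaving out 1 tumor gave 0 to 38 calls, 0 to 27 of them higher and 0 to 20 lower, and 30 to 55 members without overlap, 18 to 30 higher and 11 to 25 lower. These are 14.9% to 27.4% of members, beside 11% to 18.6% of all genes tested in the same fits, whatever their level. The median change, under all these settings and with a member threshold of 1 or 10 CPM, and the class sums, under the other scalings and with 1 tumor left out, moved by less than the spread between tumors. For the 27 called members all directions held. The cause of the lost calls was not tested, and neither was the part of the smaller number of tumors in them.

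With 1 tumor left out, 43 of the 201 estimates changed sign at least once, 0 of them called, and their values over all tumors lay between -0.150 and 0.068. Among them were 7 named members, in 23 fits of single genes. Their lowest and highest log2 fold changes were -0.027 and 0.022 for Slc25a5, -0.031 and 0.016 for Slc25a4, -0.071 and 0.041 for Slc25a3, -0.035 and 0.043 for Slc3a2, -0.083 and 0.099 for Slc40a1, -0.034 and 0.053 for Slc15a4, and -0.040 and 0.054 for Slc27a1. No paired analysis was possible because the labels give no replicate number shared between the groups. Depth limits Slc17a6, at 0.0807 CPM in non-responder 1.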
